A study of Eisenia fetida with 15 samples.

Results

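This comparison sets 3 RNA-seq libraries coded 30d-28d against 3 libraries coded 0d-7d, 6 of the 15 libraries of a lindane soil test on adult earthworms, *Eisenia fetida*, a compost worm used in soil toxicology. The 6 libraries were taken by the code in the column headers, and no measured value entered the choice. The labels name each triplet in 2 ways. By the code, which gives soil aging and then exposure, the 30d-28d worms spent 28 d in soil that had aged for 30 d after spiking, and the 0d-7d worms spent 7 d in freshly spiked soil, so that both aging and exposure differed. By the treatment text, the libraries coded 30d-28d came from worms kept for 7 d in soil aged for 30 d, and those coded 0d-7d came from worms sampled at 0 d, before any exposure. Under the first reading both triplets had met lindane at a nominal 2.4 mg/kg, and under the second only 1 had. The measured values were not used to choose between them. Both readings hold the same libraries together, so no value or test below depends on the choice. The RNA was of whole-body sections, so fewer cells of a type and less RNA per cell cannot be told apart. Whether the 3 libraries of a triplet stem from different worms is not stated in the labels. The p-values therefore cover only the spread among libraries. Except where the 6 libraries were fitted alone, this spread was taken within all 5 triplets, so the 9 libraries not compared entered it as well.

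Lindane is an organochlorine insecticide that blocks GABA-gated chloride channels of nerve cells and is degraded slowly in soil, where it binds to organic matter as it ages. In animals, foreign compounds of this kind are commonly oxidised by cytochrome P450 enzymes, conjugated by transferases and exported by ABC transporters. Chloragogenous tissue around the earthworm gut handles much of the metabolism and storage, and coelomocytes, free cells of the body cavity, carry lysosomes and secrete lytic proteins. Lysosomes degrade proteins with cathepsins and sugar chains with glycosidases such as mannosidases. The table named no organism-specific gene models: each unigene is an assembled contig that carries the name of its best protein match, often from another phylum, and several contigs can stand for the same gene.

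No unigene passed the test between the triplets. Of 101090 unigenes tested with edgeR's quasi-likelihood test, 0 had a Benjamini-Hochberg adjusted p below 0.05 (0% called), and the lowest adjusted p was 0.885. At an unadjusted p below 0.05 there were 5382 unigenes (5.32% of those tested), 2789 higher in 30d-28d (2.76%) and 2593 lower (2.57%). DESeq2 on the same counts called 369 (0.365%), 183 higher and 186 lower. It gave no adjusted p for 21195 of the 101090, which are counted here as not called. In 10554 unigenes (10.4%) the 3 libraries of one triplet all lay above the 3 of the other, 4635 higher in 30d-28d (4.59%) and 5919 lower (5.86%). Log2 changes below are 30d-28d minus 0d-7d from edgeR with their standard error (SE), so that a positive value is a higher level in 30d-28d. Over all unigenes tested 48.9% had a log2 change above 0 and the median was -0.02. Levels are FPKM, which are scaled for unigene length and library size. Of 32134 unigenes with a mean of at least 5 FPKM over the 6 libraries, 47.1% had a log2 change above 0, 4.50% had separate triplets with 30d-28d higher and 6.96% with 30d-28d lower, and their median log2 change was -0.05. In the same 32134, 2.67% were higher and 2.90% lower at an unadjusted p below 0.05. Each unigene named below had an edgeR adjusted p of at least 0.885, and "higher" and "lower" describe the measured values only.

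The libraries of a triplet resembled each other no more than those of the other triplet. The 0d-7d libraries 1 to 3 held 13590867, 15303019 and 15804462 counted reads, and the 30d-28d libraries 16535679, 23619530 and 22313887. Every 30d-28d library was thus deeper than any 0d-7d library. Spearman's rho of normalised log2 read counts averaged 0.662 over the 6 pairs within triplets and 0.679 over the 9 pairs between them, and 1 of the 6 libraries was closest to a library of its own triplet. The gut marker lumbrokinase, a secreted fibrinolytic serine protease of earthworms, crossed the triplets. Its unigenes summed to 17.9, 32 and 20998 FPKM in 0d-7d libraries 1 to 3 and to 51279, 24.9 and 1648 FPKM in 30d-28d libraries 1 to 3. Chitinase unigenes summed to 157.4, 5412 and 95.4 FPKM in 0d-7d and to 384.2, 42.9 and 5040 FPKM in 30d-28d. The high libraries for lumbrokinase and chitinase were thus found in both triplets and were not the same ones for the 2 enzymes. Endoglucanase or cellulase unigenes summed to 2.61, 8.38 and 291.9 FPKM in 0d-7d and to 1032, 4.86 and 19.3 FPKM in 30d-28d. Unigenes with trypsin in the name summed to 262.0, 68.5 and 452.5 FPKM against 54.4, 223.1 and 204.1 FPKM. They were lowest in 30d-28d library 1, where lumbrokinase was highest, so the gut markers did not move together. Tropomyosin of muscle was highest in 0d-7d library 3 with 3118 FPKM and 30d-28d library 2 with 2189 FPKM, against 648.0 to 886.4 FPKM in the other 4. The coelomocyte toxin lysenin was detected in all 6 libraries, at 1011 to 3083 FPKM, while fetidin, coelomic cytolytic factor and synapsin were not named in the table. The part of this tissue mix in the results below was not tested.

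**Figure D1:**
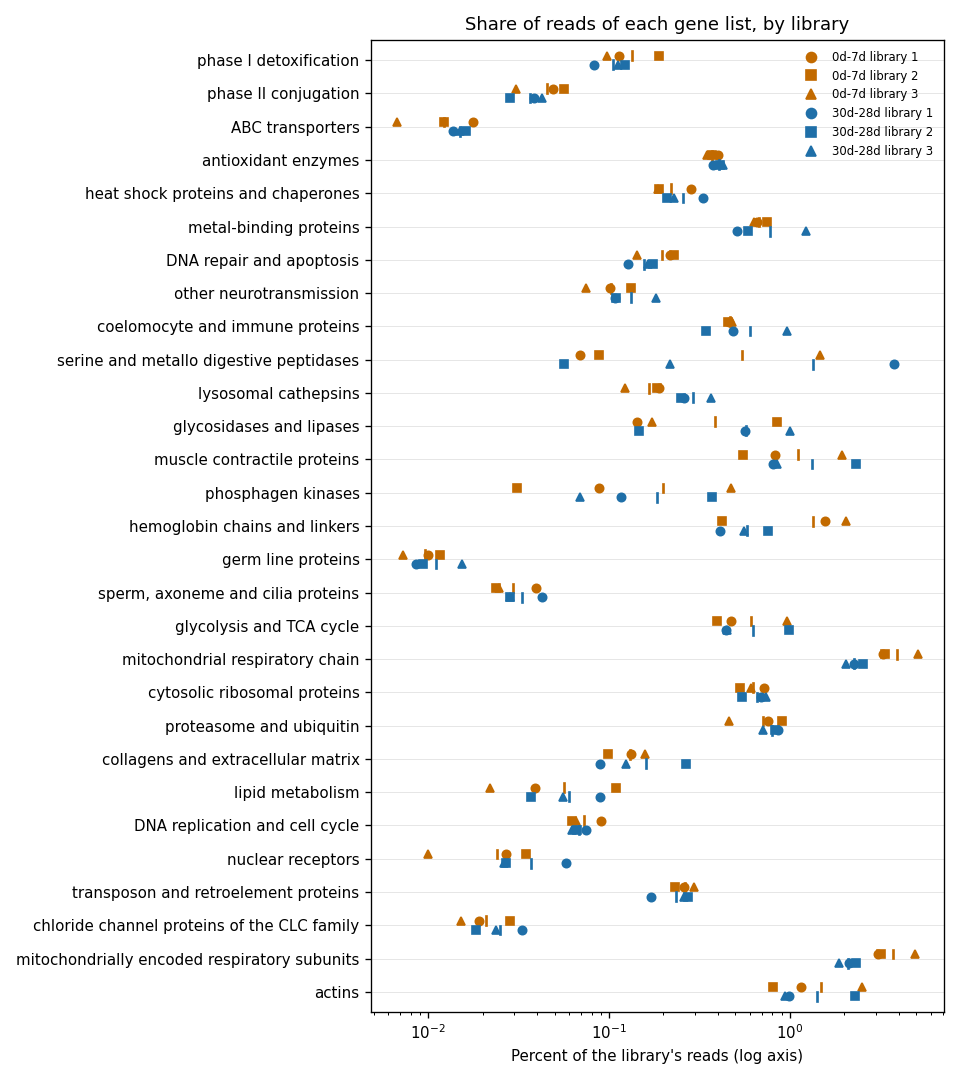
Percent of each library's reads (log axis) that fell on the members of 29 gene lists. Points are single libraries (0d-7d orange, 30d-28d blue; circle, square and triangle for libraries 1, 2 and 3) and vertical ticks are triplet means; the triplets separate for lysosomal cathepsins, the mitochondrial respiratory chain and its mitochondrially encoded subset, and digestive peptidases span the widest range.

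Genes were grouped into 31 lists by protein name, and the summed share of reads of 3 lists did not overlap between the triplets. These were lysosomal cathepsins, higher in 30d-28d, and the mitochondrial respiratory chain with its own mitochondrially encoded subset, lower in 30d-28d. The other 28 lists overlapped. Of the 3, the mitochondrially encoded list is a part of another and was drawn after its values had been seen. For scale, 10.4% of single unigenes tested had separate triplets, 4.59% higher in 30d-28d and 5.86% lower. Counts of separate triplets within the lists below are to be read beside these shares. The list separations are descriptions, with no test of a list.

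Lysosomal cathepsins took a larger share of the reads in every 30d-28d library than in any 0d-7d library. Their share was 0.19%, 0.183% and 0.123% in 0d-7d libraries 1 to 3 and 0.26%, 0.249% and 0.365% in 30d-28d libraries 1 to 3, with means of 0.165% ± 0.0367 and 0.291% ± 0.0643 (SD, n = 3 each). Without 0d-7d library 3, the lowest, the 0d-7d mean was 0.186%. The other 9 libraries of the series ranged from 0.155% to 0.423%, a range that takes in 5 of these 6 libraries. Of 54 cathepsin unigenes tested, 34 were higher and 20 lower in 30d-28d, and 7 had separate triplets higher and 3 lower. At an unadjusted p below 0.05 by edgeR, 8 were higher and 0 lower. Among the 8 were contig_411049 and contig_62658, which of the 6 libraries were high in 30d-28d library 3 alone. The median log2 change of these 54 was 0.48, and between 0.02 (without 30d-28d library 3) and 1.44 (without 0d-7d library 2) when each library was left out in turn.

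The cathepsins that lay apart were mainly of the C and L types. Cathepsin C, or dipeptidyl peptidase 1, removes dipeptides from protein ends and activates other proteases. Its unigene contig_650 had 84.9, 51.6 and 41.1 FPKM in 0d-7d libraries 1 to 3 and 153.0, 148.4 and 142.3 FPKM in 30d-28d libraries 1 to 3. The 30d-28d libraries lay within a narrow band above all 0d-7d libraries, 2.5 times higher in mean FPKM, with a log2 change of 1.48 (SE 0.313, unadjusted p = 0.000434 by edgeR). The other 9 libraries of the series spanned 83.8 to 190.7 FPKM for this unigene, so the 0d-7d libraries 2 and 3 lay below all of them.

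Cathepsin L is an endopeptidase that does much of the bulk protein breakdown in lysosomes and also serves digestion in many invertebrates. Contig_3410, named cathepsin L, had 109.9, 149.1 and 59.4 FPKM in 0d-7d and 537.7, 297.5 and 328.9 FPKM in 30d-28d. Its lowest 30d-28d library was well above its highest 0d-7d library, and its log2 change was 1.98 (SE 0.423, unadjusted p = 0.000489 by edgeR). Contig_5918, named cathepsin L3, had 69.5, 89.2 and 17.8 FPKM against 435.2, 197.1 and 228.6 FPKM, a log2 change of 2.31 (SE 0.578). Contig_1053, a putative cathepsin L-like cysteine protease and one of the 2 most abundant members, had 222.9, 219.9 and 133.5 FPKM against 648.4, 374.7 and 468.9 FPKM, a log2 change of 1.41 (SE 0.39). In each of these 3 unigenes 0d-7d library 3 was the lowest of the 6 and 30d-28d library 1 the highest. Contig_3409, a C1 family cathepsin L3, had 247.6, 228.8 and 64 FPKM against 647.7, 329.0 and 565.6 FPKM and followed the same order at both ends. Contig_53226, a cathepsin L-like cysteine proteinase, had 4.88, 13.5 and 4.39 FPKM against 26.7, 21.9 and 27.3 FPKM, a log2 change of 1.80 (SE 0.557). Since reads shared by near-identical contigs may have been split among them, these contigs are not independent measurements. DESeq2 gave contig_650, contig_3410, contig_5918 and contig_1053 adjusted p-values of 0.000176, 0.00109, 0.0199 and 0.048.

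Other cathepsin unigenes went the opposite way or were present in single libraries. Contig_103244, also named cathepsin L, had 64.3, 34.5 and 116.8 FPKM in 0d-7d and 21.1, 32.8 and 18.8 FPKM in 30d-28d. The cathepsin L-like proteinase contig_5133 had 88.9, 45.7 and 117.6 FPKM against 11.1, 39.4 and 11 FPKM. Both were highest in 0d-7d library 3, the library in which the cathepsins of the preceding group were lowest. Contig_62658, named cathepsin L, stood at 114.7 FPKM in 30d-28d library 3 and at 0.142 FPKM or less in the other 5 libraries. Contig_54196, named cathepsin C, had 83.9 FPKM in 0d-7d library 2 and 272.4 FPKM in 30d-28d library 3, the libraries that were also high for chitinase. Of the 42 cathepsin unigenes with at least 5 FPKM, 25 were higher in 30d-28d with a median log2 change of 0.19, 7 had separate triplets with 30d-28d higher and 2 with 30d-28d lower. Leaving out each library in turn moved that median between 0.08 and 0.48.

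**Figure D2:**
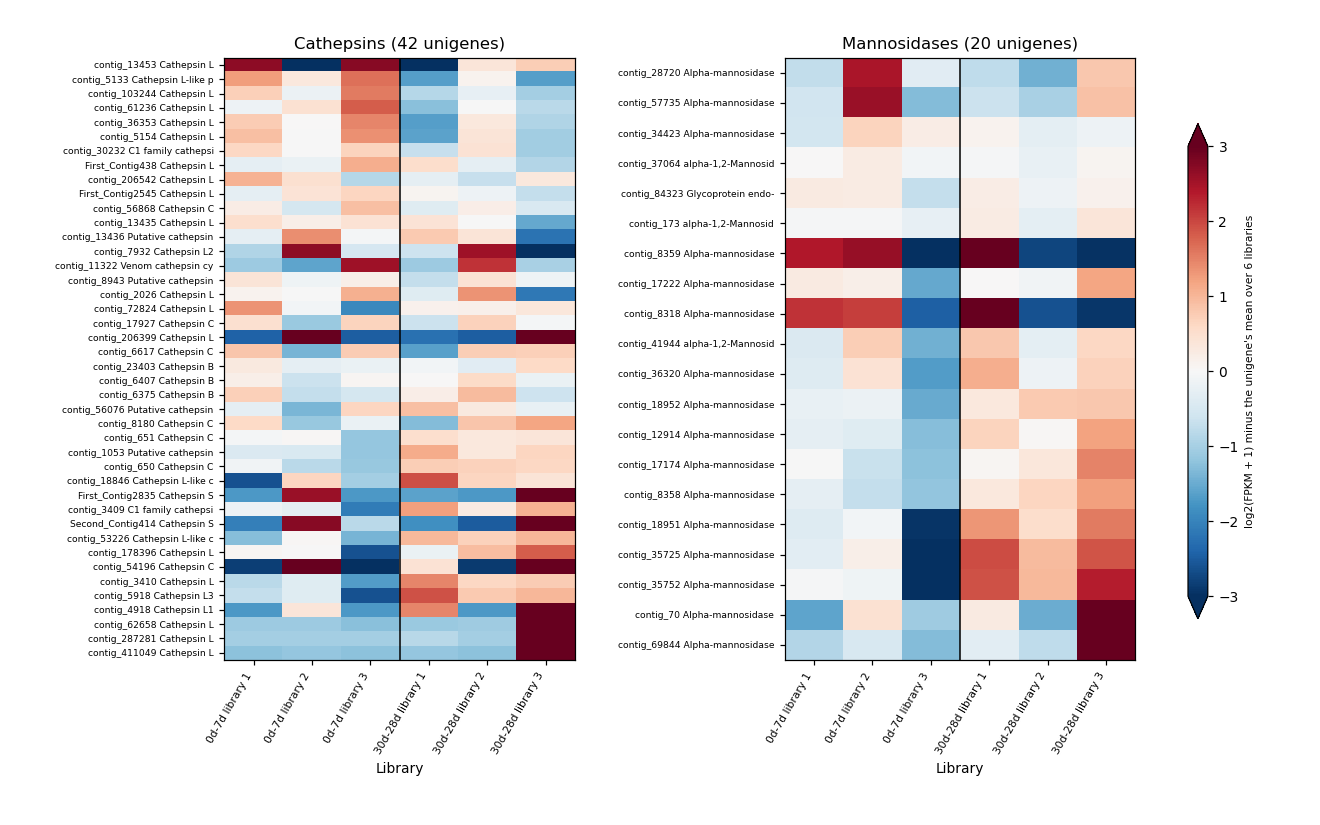
Level of each cathepsin (42) and mannosidase (20) unigene with a mean of at least 5 FPKM, by library, as log2(FPKM + 1) minus the unigene's mean over the 6 libraries (red above, blue below; values past 3 take the end colour). Rows are ordered by log2 change, lowest at the top; a block near the bottom of each panel is red in the 3 libraries of 30d-28d and bluest in 0d-7d library 3, and some rows stand out in 1 or 2 libraries only.

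Alpha-mannosidases, which trim mannose from the sugar chains of glycoproteins, showed a like pattern. This family was singled out after its values had been seen. Contig_8358 had 54.9, 40.2 and 28.7 FPKM in 0d-7d and 83.9, 104.8 and 158.1 FPKM in 30d-28d, a log2 change of 1.62 (SE 0.411, unadjusted p = 0.00184 by edgeR). Contig_18952 had 29.1, 30.1 and 11.4 FPKM against 42.5, 59.9 and 60.7 FPKM, and contig_18951 had 30.4, 38.2 and 4.43 FPKM against 102.5, 59 and 119.9 FPKM. Contig_35752 was listed at 0 in 0d-7d library 3, at 32.1 and 29.9 FPKM in 0d-7d libraries 1 and 2, and at 125.0, 65.2 and 171.7 FPKM in 30d-28d. All 4 had separate triplets, and 0d-7d library 3 was the lowest in each.

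Of 20 mannosidase unigenes with at least 5 FPKM, 17 were higher in 30d-28d, 7 had separate triplets in that direction and 0 in the other, and the median log2 change was 0.91. At an unadjusted p below 0.05 there were 6 higher and 0 lower. The 0d-7d library 3 was the lowest of the 6 libraries in 14 of the 20. Without that library 14 of 20 were higher and the median log2 change was 0.49. In the wider list of glycosidases and lipases, 72 of 105 tested unigenes were higher, 12 had separate triplets with 30d-28d higher and 1 with 30d-28d lower, and the median log2 change of 0.44 was -0.09 without 30d-28d library 1. The summed share of this list overlapped, with 0.143%, 0.845% and 0.173% in 0d-7d and 0.562%, 0.147% and 1% in 30d-28d. Contig_13752, named lipase, an enzyme that splits storage fats, had 6.19, 8.34 and 6.28 FPKM against 27.5, 14.2 and 12.5 FPKM, a log2 change of 1.51 (SE 0.431).

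Transcripts encoded by the mitochondrial genome took a smaller share of the reads in 30d-28d. Their list was drawn after its values had been seen, so its separation is no independent result. These code for core subunits of the respiratory complexes and of ATP synthase. Their share was 3.05%, 3.18% and 4.9% in 0d-7d libraries 1 to 3 and 2.12%, 2.32% and 1.87% in 30d-28d libraries 1 to 3, with means of 3.71% ± 1.04 and 2.1% ± 0.227 (SD, n = 3 each). The triplets did not overlap, and the 0d-7d mean without library 3, the highest, was 3.11%. The other 9 libraries ranged from 1.34% to 3.83%, which takes in 5 of the 6. The whole respiratory chain list, nuclear genes included, took 3.28%, 3.35% and 5.09% in 0d-7d and 2.26%, 2.52% and 2.03% in 30d-28d.

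Within complex I, NADH-ubiquinone oxidoreductase chain 6 (contig_9699) had 6524, 6600 and 15835 FPKM in 0d-7d and 5073, 4412 and 3848 FPKM in 30d-28d. Its log2 change was -1.40 (SE 0.433, unadjusted p = 0.00691 by edgeR), and 0d-7d library 3 stood far above the other 5 libraries. Chain 1 (contig_642), the most abundant unigene of the list, had 9201, 8565 and 18575 FPKM against 8653, 6459 and 6783 FPKM, so that 0d-7d library 2 lay just below 30d-28d library 1. Cytochrome c oxidase subunit 1 is the catalytic subunit of complex IV. Its unigene contig_75799 had 3274, 3347 and 5459 FPKM against 2510, 2634 and 2159 FPKM, a log2 change of -0.90 (SE 0.35). A further unigene of that name, contig_286, had 6768, 5974 and 11047 FPKM against 5982, 5023 and 5096 FPKM and overlapped by a small margin. The ATP synthase a chain unigene contig_80341, at a far lower level, had 1.96, 3.84 and 17.8 FPKM against 1.08, 1 and 0.881 FPKM.

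Of the 16 mitochondrially encoded unigenes with at least 5 FPKM, 15 were lower in 30d-28d, 5 had separate triplets in that direction and 0 in the other, and 3 were lower at an unadjusted p below 0.05. Their median log2 change was -0.78, and 0d-7d library 3 was the highest of the 6 in 13 of them. Without that library all 16 were lower, with a median of -0.41. Animal mitochondrial transcripts are cut from shared precursors, so these unigenes are not independent measurements. Chain 4 of complex I was assembled as contigs with opposite patterns: contig_60 had 5178, 427.6 and 16.8 FPKM in 0d-7d and 4383, 312.6 and 3730 FPKM in 30d-28d, while contig_149 had 1066, 3415 and 7692 FPKM and 1004, 2317 and 794.5 FPKM. In both triplets a library high for contig_60 was low for contig_149. A further 12 unigenes with such names lay under 5 FPKM, and 10 of these were higher in 30d-28d, 7 with separate triplets and 6 at an unadjusted p below 0.05. All 12 together held 123 to 675 reads in a library. Over all 28 tested unigenes with such names, 6 were higher and 4 lower at an unadjusted p below 0.05, 7 had separate triplets higher and 6 lower, and the median log2 change was -0.55.

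**Figure D3:**
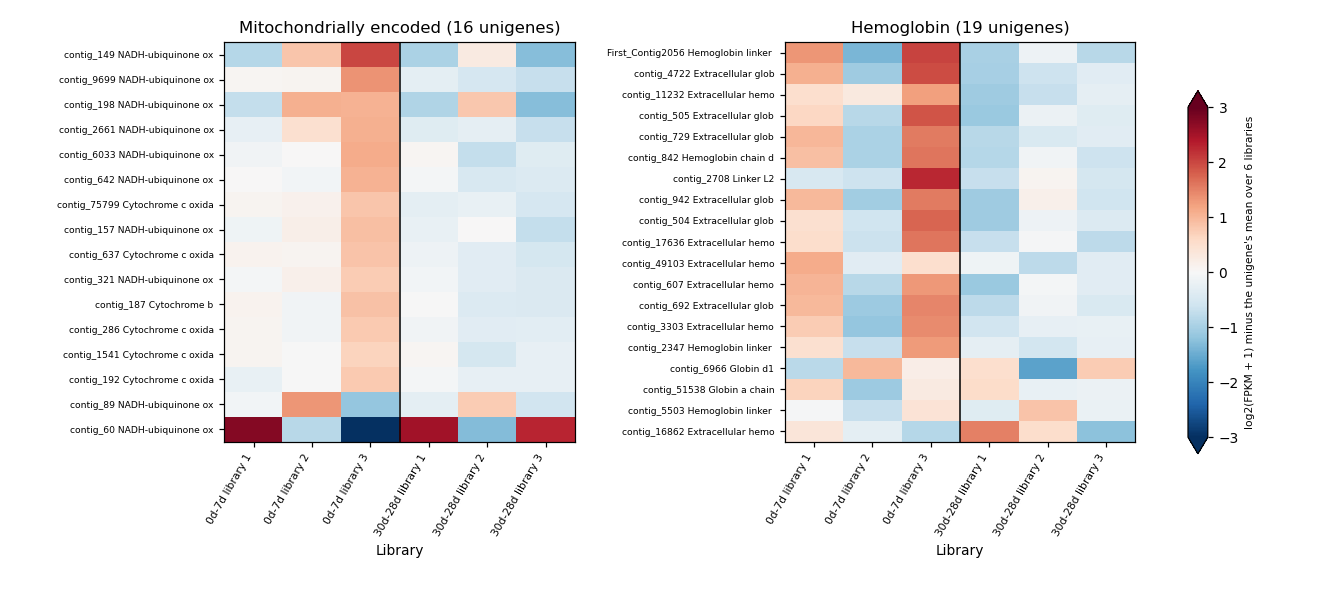
Level of each mitochondrially encoded (16) and hemoglobin (19) unigene with a mean of at least 5 FPKM, by library, as log2(FPKM + 1) minus the unigene's mean over the 6 libraries (red above, blue below; values past 3 take the end colour). The column of 0d-7d library 3 is the reddest in both panels; 0d-7d library 1 is red for most hemoglobin rows, and 0d-7d library 2 is blue for most of them.

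Extracellular hemoglobin, the giant oxygen carrier dissolved in earthworm blood, is built from globin chains and linker chains. Its list had 17 of 23 tested unigenes lower in 30d-28d, with a median log2 change of -1.01, but 0 at an unadjusted p below 0.05 in either direction. Hemoglobin chain d1 (contig_842) had 4917, 1368 and 8014 FPKM in 0d-7d and 1459, 2439 and 1708 FPKM in 30d-28d. Extracellular globin-4 (contig_729) had 3732, 961.1 and 5488 FPKM against 1036, 1361 and 1479 FPKM. In both, 0d-7d libraries 1 and 3 were high and 0d-7d library 2 was the lowest of all 6, so the triplets overlapped. The summed share of the list was 1.56%, 0.42% and 2.04% in 0d-7d and 0.411%, 0.761% and 0.559% in 30d-28d. Leaving out each library in turn gave list medians between -1.39 and -0.36. Of the 19 unigenes with at least 5 FPKM, 1 had separate triplets: extracellular hemoglobin linker L2 (contig_11232) had 8.15, 6.95 and 14.2 FPKM against 2.09, 3 and 4.34 FPKM, with a log2 change of -1.55 (SE 1.15).

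The most abundant muscle genes were high in 1 library of each triplet. Myosin essential light chain (contig_1202), part of the contractile motor, had 451.6, 284.7 and 2761 FPKM in 0d-7d and 809.4, 2087 and 376.2 FPKM in 30d-28d. Lombricine kinase (contig_2643), the annelid phosphagen kinase that buffers ATP in muscle, had 301.9, 110.1 and 1832 FPKM against 428.4, 1189 and 237.3 FPKM. In both, 0d-7d library 3 and 30d-28d library 2 were the high libraries. Of 75 contractile protein unigenes tested, 45 were higher and 30 lower, with a median log2 change of 0.11 that was -0.15 without 30d-28d library 2. Separate triplets were found in 4 of them with 30d-28d higher and in 2 with 30d-28d lower. Titin (contig_28459), the elastic giant protein of the sarcomere, had 9, 12.7 and 10.6 FPKM in 0d-7d and 16.3, 27.4 and 15.8 FPKM in 30d-28d.

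The most abundant actin, contig_4099, showed the same 2 high libraries, with 1817, 765.4 and 8646 FPKM in 0d-7d and 2242, 5736 and 1538 FPKM in 30d-28d. Contig_7169, also named actin, was different: it had 1231, 876.9 and 1566 FPKM in 0d-7d and 375.7, 681.3 and 449.2 FPKM in 30d-28d, a log2 change of -1.19 (SE 0.381, unadjusted p = 0.00853 by edgeR). Actin 5C (contig_1937), named after a cytoplasmic actin of *Drosophila*, had 1424, 1216 and 2363 FPKM against 585.1, 819.7 and 773.3 FPKM, a log2 change of -1.05 (SE 0.383). Both lay lower in every 30d-28d library than in any 0d-7d library. The actin list, too, was drawn after its values had been seen. Of 8 actin unigenes with at least 5 FPKM, 5 were lower and 3 of these had separate triplets, and the median log2 change of -0.33 became 0.16 without 0d-7d library 3.

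Enzymes that handle foreign compounds pointed both ways, and their shares of reads overlapped between the triplets. Of 62 phase I unigenes tested (cytochrome P450 and other oxidising enzymes), 21 were higher and 41 lower in 30d-28d, 0 had an unadjusted p below 0.05 in either direction, and the median log2 change was -0.37. That median was 0.31 without 0d-7d library 2. The list took 0.114%, 0.189% and 0.0977% of reads in 0d-7d and 0.0825%, 0.123% and 0.112% in 30d-28d. One of its 2 most abundant members, a dimethylaniline monooxygenase (contig_14224), a flavin enzyme that oxidises nitrogen and sulfur compounds, had 61.2, 13.2 and 29.5 FPKM against 14.6, 93.5 and 24.7 FPKM. Aldehyde dehydrogenase (contig_12391) had 14.4, 23.9 and 22.9 FPKM against 13.6, 12.1 and 13 FPKM, a narrow separation with a log2 change of -0.50 (SE 0.692).

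Phase II enzymes, which attach glutathione, glucuronic acid or sulfate, had 19 of 46 tested unigenes higher and 27 lower, with a median log2 change of -0.12 that was 0.12 without 0d-7d library 2. Microsomal glutathione S-transferase (contig_14041) had 30.7, 57.8 and 31.7 FPKM in 0d-7d and 24.6, 21.8 and 38.8 FPKM in 30d-28d. The UDP-glucuronosyltransferases pointed both ways. Contig_28655 had 15.6, 26.8 and 15.3 FPKM against 3.89, 9.95 and 13.9 FPKM, and contig_68453 had 4.88, 7.62 and 4.38 FPKM against 26.7, 11.5 and 13.2 FPKM. Both had separate triplets, with log2 changes of -1.05 (SE 0.519) and 1.75 (SE 1.12). ABC transporters had 19 of 24 tested unigenes higher, 0 at an unadjusted p below 0.05 in either direction, and a median log2 change of 0.36. The multidrug resistance-associated protein contig_30749, an export pump, had 5.91, 7.1 and 9.7 FPKM against 4.44, 14.2 and 6.82 FPKM and overlapped.

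Among antioxidant enzymes, 29 of 53 tested unigenes were higher, 4 had separate triplets with 30d-28d higher and 5 with 30d-28d lower, and the median log2 change of 0.05 was -0.37 without 30d-28d library 3. Cu-Zn superoxide dismutase (contig_14861), which converts superoxide to hydrogen peroxide, had 62.5, 35.8 and 54 FPKM in 0d-7d and 19.2, 21 and 19.8 FPKM in 30d-28d. The 30d-28d libraries were close together and below all 0d-7d libraries, with a log2 change of -1.18 (SE 0.531, unadjusted p = 0.0456 by edgeR). Glutathione synthetase (contig_86753), the last step of glutathione synthesis, had 5.21, 6 and 3.75 FPKM against 8.38, 8.74 and 8.39 FPKM, a log2 change of 0.87 (SE 0.432). Glutathione peroxidase (contig_1215), the most abundant member, had 1361, 900.1 and 1457 FPKM against 1565, 1614 and 1371 FPKM and overlapped.

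Heat shock proteins and chaperones had 39 of 48 tested unigenes higher, 7 higher and 1 lower at an unadjusted p below 0.05, and a median log2 change of 0.46. That median was 0.21 without 30d-28d library 1. The 1 lower was the DnaJ-like contig_108214, given further below. Of the 19 with a mean of at least 5 FPKM, 17 were higher, with a median of 0.25. Among those 19, 2 were higher and 0 lower at an unadjusted p below 0.05 by edgeR. The abundant members overlapped: heat shock 70 kDa cognate-like protein (contig_686) had 703.5, 335.6 and 411.8 FPKM in 0d-7d and 801.4, 549.9 and 422.2 FPKM in 30d-28d. Heat shock protein 90 (contig_268005), a chaperone of signalling proteins, had 1.6, 0.873 and 0.122 FPKM against 39.1, 3.07 and 3.61 FPKM, a log2 change of 4.17 (SE 1.39). Heat shock protein 70 form 1 (contig_315151), chosen after its values were seen, had 2.47, 1.91 and 0.379 FPKM against 48.9, 3.5 and 5.12 FPKM. In both, 30d-28d library 1 was far above the other 5 libraries, and without it the log2 changes were 2.06 and 1.57 against 4.17 and 3.64. Of metal-binding proteins, the iron store ferritin was the most abundant, and contig_63 had 1583, 1873 and 2707 FPKM against 2034, 2143 and 1863 FPKM. A further ferritin unigene, contig_62, had 4728 FPKM in 0d-7d library 1 and between 23.5 and 52.3 FPKM in the other 5 libraries.

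Ligand-gated chloride channels, the class that includes the target of lindane, were represented by 1 tested unigene. The glutamate-gated chloride channel contig_149944 had 5.09, 3.46 and 7.57 FPKM in 0d-7d and 4.14, 10.5 and 2.86 FPKM in 30d-28d. The triplets overlapped fully, with a log2 change of 0.37 (SE 0.62). The CLC family of chloride channels and transporters, which are not gated by transmitters, had 19 of 34 tested unigenes higher and a median log2 change of 0.18, or -0.09 without 30d-28d library 3. Its most abundant member, contig_80523, had 18.1, 10.4 and 25.2 FPKM against 14.4, 12.1 and 12 FPKM. Other genes of neurotransmission had 100 of 146 tested unigenes higher, 18 with separate triplets higher and 8 lower, and a median log2 change of 0.38. Most of these lay at low levels. Of the 27 with a mean of at least 5 FPKM, 20 were higher, with a median of 0.32. Among those 27, 1 had separate triplets higher and 1 lower, and 0 had an unadjusted p below 0.05 by edgeR. Neurexin-2-alpha (contig_16707), a presynaptic adhesion protein in vertebrates, was not a member of this list. It had 1.14, 0.51 and 2.21 FPKM against 12.2, 8.96 and 2.81 FPKM, a log2 change of 2.87 (SE 0.764, unadjusted p = 0.00258 by edgeR). Within the list, synaptobrevin (contig_52148), a vesicle fusion protein, had 2.15, 8.98 and 10.1 FPKM against 1.09, 1.09 and 2.11 FPKM, a log2 change of -2.24 (SE 0.994), whereas its partner syntaxin-1A (contig_71663) had 5.28, 3.9 and 3.54 FPKM against 9.01, 5.53 and 5.3 FPKM. Annetocin (First_Contig6892), an egg-laying peptide of earthworms related to oxytocin, had 144.5 FPKM in 0d-7d library 2, 729.7 FPKM in 30d-28d library 3 and less than 1 FPKM in the other 4.

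Coelomocyte and immune proteins had 49 of 76 tested unigenes higher and a median log2 change of 0.58, which was -0.02 without 30d-28d library 3. Outside this list, a thioester-containing protein (contig_23089), of a family that binds microbes in insects, had 27.3, 11.7 and 12.8 FPKM in 0d-7d and 44.6, 43 and 55.3 FPKM in 30d-28d, a log2 change of 1.58 (SE 0.429). The protease inhibitor alpha-2-macroglobulin (contig_37447) had 8.07, 9.59 and 5.22 FPKM against 18.5, 16.4 and 30.8 FPKM, a log2 change of 1.69 (SE 0.492). Lysenin-related protein 2 (contig_6068), a pore-forming toxin of coelomocytes, had 1002, 253.1 and 859.9 FPKM against 388.5, 602.2 and 114.3 FPKM and overlapped. A bactericidal permeability increasing protein (First_Contig6794) had 373.3 FPKM in 0d-7d library 2, 1966 FPKM in 30d-28d library 3 and 2.03 FPKM or less in the other 4, the same 2 libraries as annetocin and chitinase.

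Serine and metallo digestive peptidases ranged over 0.0694%, 0.0882% and 1.47% of reads in 0d-7d and 3.74%, 0.0567% and 0.218% in 30d-28d. Of 99 tested, 74 were higher, but 0 had an unadjusted p below 0.05 in either direction. Lumbrokinase-7T1 (contig_150) alone spanned, within 30d-28d, 1.12 FPKM (library 2) to 15375 FPKM (library 1). The median log2 change of 0.68 became -1.44 without 30d-28d library 1 and 5.14 without 0d-7d library 3.

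**Figure D4:**
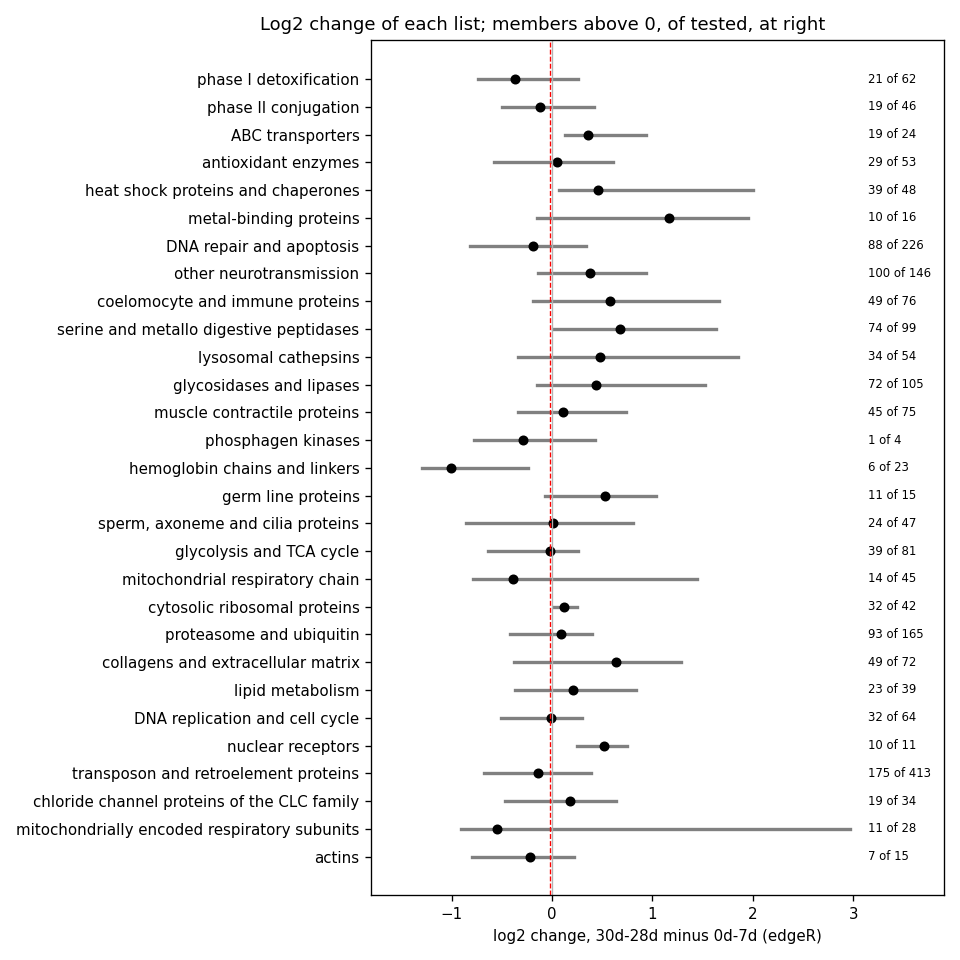
Median log2 change (point) and middle 50% of members (bar) for 29 gene lists, 30d-28d minus 0d-7d, with the number of tested members above 0 at the right. The dashed red line is the median of all unigenes tested, -0.02; hemoglobin has the lowest median, -1.01, and metal-binding proteins the highest, 1.16.

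DNA repair and apoptosis genes had 88 of 226 tested unigenes higher and 136 lower, 4 with separate triplets higher and 13 lower, and a median log2 change of -0.19. The shares with separate triplets over all unigenes tested were 4.59% higher and 5.86% lower. Poly(ADP-ribose) polymerases, which mark DNA breaks, made up 140 of the 226 tested. The most abundant, contig_14033, had 37.8, 53.2 and 17 FPKM in 0d-7d and 74.8, 44.4 and 86.2 FPKM in 30d-28d. Contig_17165 of the same name had 13.4, 27.3 and 37.9 FPKM against 8.85, 13.2 and 3.58 FPKM, with the opposite sign and a small gap between the triplets. Poly(ADP-ribose) glycohydrolase ARH3 (contig_67452), which removes the mark, had 7.09, 5.66 and 8.13 FPKM against 0.91, 2.63 and 3.86 FPKM, a log2 change of -1.40 (SE 0.717).

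Lists of general cell upkeep had medians near 0. Cytosolic ribosomal proteins had 32 of 42 tested unigenes higher with a median log2 change of 0.12, and ribosomal protein L15 (contig_2482) had 768.2, 588.9 and 853.5 FPKM in 0d-7d and 764.0, 571.2 and 822.9 FPKM in 30d-28d. Proteasome and ubiquitin genes had 93 of 165 higher with a median of 0.09, and polyubiquitin-B (First_Contig4706) had 5858, 5635 and 4712 FPKM against 5784, 6757 and 4952 FPKM. DNA replication and cell cycle genes split evenly, 32 higher and 32 lower. Glycolysis and TCA cycle genes had 39 of 81 higher with a median of -0.02, or 0.11 without 30d-28d library 1, and glyceraldehyde-3-phosphate dehydrogenase (contig_33542) followed the muscle libraries with 337.1, 119.3 and 1401 FPKM against 310.2, 1037 and 318.0 FPKM.

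Of the remaining lists, collagens and extracellular matrix had 49 of 72 tested unigenes higher and a median log2 change of 0.64. Type IV collagen alpha (contig_3636), of basement membranes, had 8.19, 3.24 and 3.36 FPKM in 0d-7d and 8.44, 11.7 and 9.61 FPKM in 30d-28d. Nuclear receptors had 10 of 11 higher and a median of 0.52. A retinoic acid receptor RXR-alpha (contig_42751), a common partner of other nuclear receptors, had 11.7, 22 and 8.3 FPKM against 58.4, 14.6 and 12.3 FPKM and overlapped. Germ line proteins had 11 of 15 higher, and a piwi-like protein (contig_53471), which guards germ cells against transposons, had 9.04, 11.3 and 6.24 FPKM against 8.19, 8.63 and 26 FPKM. Transposon and retroelement proteins had 175 of 413 higher and 238 lower with a median of -0.14, 12 with separate triplets higher and 25 lower. Over all unigenes tested, 4.59% had separate triplets higher and 5.86% lower. Lipid metabolism had 23 of 39 higher with a median of 0.21, or -0.11 without 0d-7d library 3. Sperm, axoneme and cilia proteins had 24 of 47 higher with a median of 0.01, or -0.33 without 30d-28d library 1.

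List members included, 268 unigenes had separate triplets with 30d-28d higher and 189 with 30d-28d lower. Each had an informative protein name and a mean of 5 FPKM or more in the higher triplet. They were 7.17% and 5.06% of the 3738 with such a name and level. Over all 37908 unigenes at that level, named or not, the shares were 5.02% higher and 7.57% lower. Those named here and in the plot of leading unigenes are from the 12 of lowest unadjusted p in each direction, and their separation is part of how they were picked. Of the higher ones not yet given, a receptor protein-tyrosine kinase (contig_18193) had 7.26, 6.42 and 5.06 FPKM in 0d-7d and 17.7, 19.4 and 14.2 FPKM in 30d-28d. A phospholipid-transporting ATPase (contig_32844), a flippase that moves lipids between membrane leaflets, had 5.19, 5.47 and 2.08 FPKM against 9.54, 8.6 and 9.08 FPKM. These were modest differences with tight 30d-28d libraries. A zinc finger FYVE domain-containing protein (contig_43891), of a domain that binds endosomal membranes, had 3.37, 2.99 and 3.77 FPKM against 10.1, 11.2 and 5.67 FPKM. UPF0505 protein C16orf62-like protein (contig_16499), whose human namesake acts in endosomal recycling, had 2.59, 2.32 and 1.13 FPKM against 6.45, 3.46 and 6.92 FPKM.

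Several of the lower ones were nearly off in 30d-28d. DnaJ-like protein subfamily C member 22 (contig_108214), a co-chaperone, had 16.1, 0.466 and 11.4 FPKM in 0d-7d and 0.074, 0 and 0 FPKM in 30d-28d. A fibroblast growth factor receptor (contig_208996) had 1.1, 15.2 and 1.36 FPKM against 0 in all 3 libraries of 30d-28d. Cytoplasmic antigen 1 (contig_278070) had 6.26, 6.56 and 4.68 FPKM against 0 in all 3, with 22, 24 and 19 reads in 0d-7d. In the other 9 libraries these 3 unigenes ranged from 0.063 to 17.7, from 0 to 9.96 and from 0 to 7.83 FPKM, so that near-absence was found outside 30d-28d as well. Hedgehog protein (contig_22116), a secreted developmental signal, differed more evenly, with 3.87, 10.4 and 5.6 FPKM against 2.32, 2.29 and 3.44 FPKM and a log2 change of -1.19 (SE 0.377). Zinc finger protein 271 (contig_9564) had 3.5, 5.74 and 18 FPKM against 1.15, 1.23 and 3.32 FPKM, and a retrovirus-related Pol polyprotein (contig_76222) had 9.4, 4.73 and 54.6 FPKM against 2.16, 4.14 and 3.84 FPKM. In these 2 the highest value again belonged to 0d-7d library 3.

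**Figure D5:**
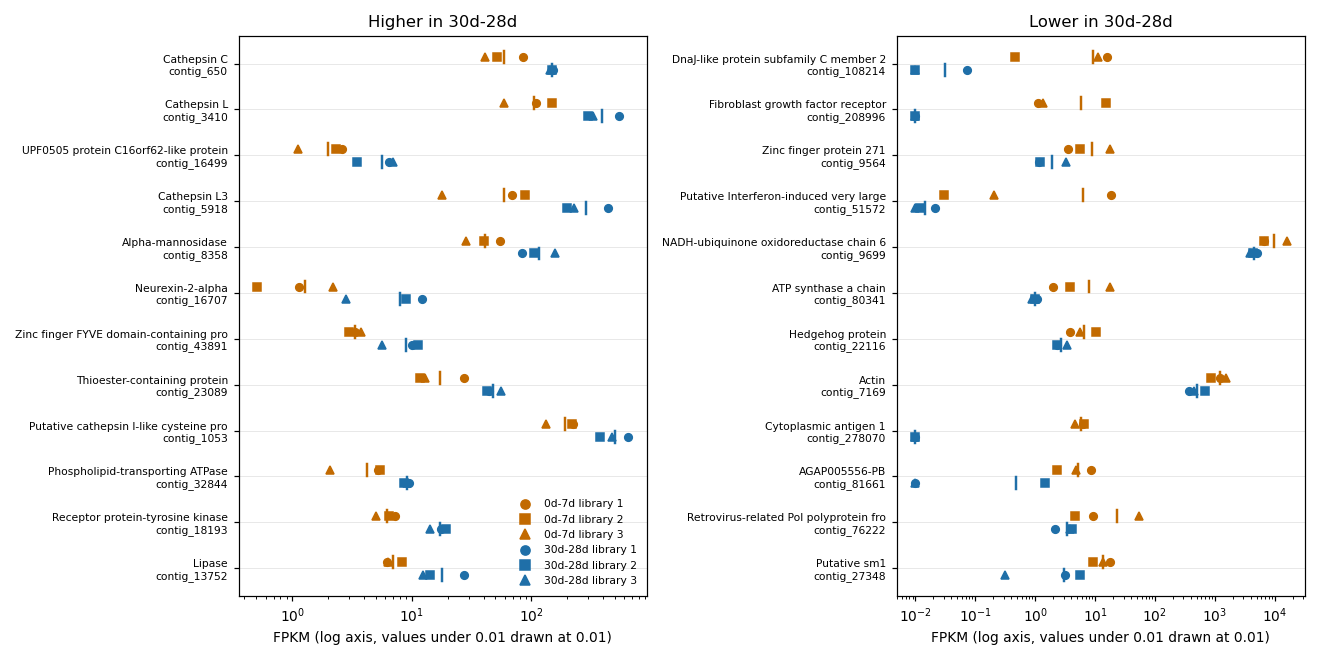
FPKM in each library (log axis; values under 0.01 are drawn at 0.01) of the 12 informatively named unigenes of lowest unadjusted p in each direction. Points are single libraries (0d-7d orange, 30d-28d blue; circle, square and triangle for libraries 1, 2 and 3) and ticks are triplet means; the triplets are separate in every row because the unigenes were picked so, and 0d-7d library 3 (orange triangle) is the lowest point in several rows at the left and the highest in several at the right.

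The sharpest contrasts were in unigenes with no informative name. With every library of the higher triplet at 5 FPKM or more and a gap of at least 10-fold to the highest library of the other, a rule chosen after the values were seen, 15 unigenes were on in 30d-28d and off in 0d-7d, and 14 were the reverse. Contig_48769, an uncharacterized protein, had 133.1, 173.0 and 146.3 FPKM in 0d-7d and 0.269, 0.159 and 0.169 FPKM in 30d-28d. It was the only call when the 6 libraries were fitted alone (log2 change -9.55, SE 0.456, edgeR adjusted p = 0.0257), against an adjusted p of 0.885 in the fit of all 15 libraries. In 14 of the 15 and 12 of the 14 unigenes, at least 1 of the other 3 triplets of the series also held such a contrast. That is, it had a library at 5 FPKM or more and another lower by at least 10-fold. Replicate libraries of the same condition thus differed as sharply in most of these unigenes.

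Reads were found in every library of one triplet (at least 10 each) and in none of the other for 40 unigenes in 30d-28d and 31 in 0d-7d. Against a floor of 3 reads over the triplet, the levels were at least 9.75-fold to 164.7-fold higher in 30d-28d for the 40 and at least 19.5-fold to 433.8-fold higher in 0d-7d for the 31. Each group had 4 members with an informative name. Among the 30d-28d ones was macrophage mannose receptor 1 (contig_25773), a lectin named after a vertebrate endocytic receptor, with 26, 46 and 42 reads. Among the 0d-7d ones was serine/threonine-protein kinase ULK2 (contig_72409), named after a kinase that starts autophagy, with 25, 29 and 19 reads. None of these 40 and 31 unigenes lacked reads in all of the other 9 libraries.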

How the data were processed

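The authors deposited 1 table of unigenes with, for each library, a whole-number count of reads, an FPKM value and the unigene length, per the file headers. How reads were assembled, aligned and counted, and how those matching more than 1 unigene were treated, is not given in the sources used here. RNA was extracted and checked for integrity before standard Illumina library preparation, per the labels' protocols. All 241846 unigenes were read, and 58313 carry a protein match; 9390 of those tested had an informative name. No sequence or genome was used.

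From the deposited counts, edgeR 4.0.16 in R 4.3.3 fitted 5 triplets over all 15 libraries (filterByExpr with a minimum count of 10 and a minimum total of 15, TMM scaling, quasi-likelihood F test, two-sided), with Benjamini-Hochberg adjustment over all 101090 unigenes kept. The 15 libraries held 13182058 to 28022746 reads. The fit had 10 residual degrees of freedom and a common biological coefficient of variation of 0.923. Standard errors are the log2 change divided by the square root of F. Log2 changes of unigenes at 0 in a triplet depend on the prior count. The fit was tested on simulated counts. Alternatives were DESeq2 1.42.0, limma 3.58.1 on log2(FPKM + 1) and log2(FPKM + 0.1), other scaling and filters, the 6 libraries alone, a replicate block and each library left out.

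The members and lists were chosen with earlier results of these data known. Lists were drawn by protein name and described without a test. Name patterns were trimmed after the names were seen, 2 lists were added after seeing names (CLC channels and poly(ADP-ribose) polymerases), and 2 after seeing values (mitochondrially encoded subunits and actins). Bacterial and organellar ribosomal proteins were taken out of the ribosomal list after its members were seen. Unigenes named in the text were those past the threshold (none); informative names with separate triplets and 5 FPKM or more in the higher one, the 12 of lowest p in each direction; of each list the 2 most abundant members and up to 2 separate ones; the 8 most abundant; and the 2 without an informative name of lowest p in each direction. Not all of these are printed, and family members, on-off unigenes and the heat shock protein 70 form 1 were added after their values were seen.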

Additional observations from a re-analysis of the deposited data

How the results depend on the processing

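The count of unigenes past an adjusted p of 0.05 was 0 in edgeR with all 15 libraries, with 5382 at an unadjusted p below 0.05. It was 369 with DESeq2, of which 235 had separate triplets, 1 with limma on log2(FPKM + 1) (contig_258593, with no protein match, 4.88, 3.32 and 6.45 FPKM in 0d-7d and 0 in 30d-28d, adjusted p = 0.0183), and 1 with the 6 libraries alone (contig_48769). Leaving out each library in turn gave 0 to 1 calls, the 1 being contig_4962 without 0d-7d replicate 2 (edgeR adjusted p = 0.00315). The count was 0 with RLE size factors, no composition scaling, no filter, a stricter filter and limma on log2(FPKM + 0.1). The cause of these differences was not tested. With a replicate block the count was 0, with 4069 at an unadjusted p below 0.05. Deviations from the triplet means correlated at -0.04, -0.21 and -0.08 between same-numbered libraries. Differently numbered libraries of the 2 triplets correlated at -0.19 to 0.26. The labels do not say what a number marks, and a shared origin cannot be told from these correlations. The log2 changes of 59 named unigenes were followed under 15 alternatives. These 59 were picked for separate triplets, which makes a reversal of direction unlikely, so its absence is no support. Of 869 values, 856 kept their direction and side of the threshold, 13 passed it, all of them with DESeq2, and none reversed. List medians leaned on single libraries: that of metal-binding proteins was 1.16, and -3.79 without 30d-28d replicate 3, and that of phosphagen kinases was -0.29, and 1.64 without 0d-7d replicate 3. With no filter on low counts the median of the mitochondrially encoded list was 2.41 against -0.55.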

Other observations

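Among unigenes with no protein match, contig_25636 was the leading one lower in 30d-28d, with 18, 9.97 and 24.3 FPKM in 0d-7d and 1.08, 0.851 and 0.372 FPKM in 30d-28d. Its log2 change was -4.54 (SE 0.854), with a DESeq2 adjusted p of 1.32e-05 and an edgeR adjusted p of 0.885. The other 9 libraries ranged from 0.442 to 8.93 FPKM, so that all 3 libraries of 0d-7d lay above every other library of the series. Contig_89075, the leading one higher in 30d-28d, had 0, 0 and 0.091 FPKM in 0d-7d and 16.6, 9.19 and 0.566 FPKM in 30d-28d, and 2.52 to 44.2 FPKM in the other 9 libraries. For contig_1683, listed at 0 in all 3 libraries of 0d-7d and at 5.9, 1.48 and 10.6 FPKM in 30d-28d, the other 9 libraries held 2.03 to 10.3 FPKM. These patterns were picked for their low p, and no further test bears on them.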
